A study of Mus musculus with 11 samples.

Results

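The 43 genes described here encode the machinery that makes and trims RNA 3′ ends in the nucleus: the RNA exosome, its adaptors, and the factors of cleavage, polyadenylation and termination. They were taken by gene symbol from a table of exon reads over 13088 genes, and all 43 were found. For 24 of them a second table, of 5867 regions in all, holds reads of the upstream antisense RNA (uaRNA), the short transcript that starts at a gene's promoter and runs away from the gene. Both tables come from transient transcriptome sequencing (TT-seq), in which new RNA takes up 4-thiouridine (4sU), is fragmented, and is pulled down through a biotin tag. The cells were F121-9, an established line of female mouse embryonic stem cells of a CAST/129 hybrid background. They were wild type, grown without serum and with LIF, a MEK inhibitor and a GSK3 inhibitor. One group, siNT (n = 3; replicates 1, 2 and 3), received the siRNA labelled NT. The other, siZC3H4 (n = 2; replicates 2 and 3), received siRNA against Zc3h4. Both siRNAs were used at 30 nM, and all cells were given 500 µM 4sU for 20 min before harvest at 47 h after transfection. The series calls the replicates biological and does not say whether they were separate cultures. The p-values measure the spread between these 5 libraries, which may be technical.

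The exosome is a barrel of core subunits that threads RNA to its nucleases, EXOSC10 and DIS3. In the nucleus, adaptor complexes (NEXT with ZCCHC8 and RBM7, PAXT with ZFC3H1) bring it short unstable transcripts, uaRNAs among them. At the end of a gene, CPSF reads the AAUAAA signal and cuts, CstF binds the GU-rich element beyond it, and the cleavage factors CFI and CFII act with them. Poly(A) polymerase then adds the tail, and the exonuclease XRN2 degrades the RNA left on the polymerase. ZC3H4 with WDR82 forms Restrictor, which ends transcription of short noncoding units early.

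To check the labels, the targeted gene was read first. Zc3h4 had exon reads of 3465, 3610 and 3363 per siNT library and 7285 and 6718 in the libraries labelled siZC3H4, a log2 fold change of 1.01 ± 0.11 (SE; limma, adjusted p = 0.0043). New Zc3h4 RNA thus was higher, not lower, under the siRNA label, so these libraries are called by their label throughout. TT-seq reads new RNA, and neither mature mRNA nor protein is measured here. Exon reads per library numbered 14840637 to 26548710, and uaRNA reads 996927 to 2648683. All 7 stem-cell markers (Pou5f1, Nanog, Sox2, Esrrb, Zfp42, Klf4, Tfcp2l1) were measured and none passed the test. Their summed level was 74057 to 90770 depth-normalized reads in siNT and 63046 to 78703 in the libraries labelled siZC3H4. Marker lists of other lineages were lower. Neural ectoderm (4 of 4 names measured) summed to 1310 to 1595 and 1892 to 1944. The fibroblast list (2 of 4; Col1a1 and Col1a2 were not among the genes measured) gave 1381 to 1987 and 1906 to 2404. Primitive endoderm (3 of 4) summed to 57.4 to 104.9 and 95.6 to 122.4, and trophoblast (1 of 4, Eomes) to 173 to 199.7 and 168.3 to 228.1. No marker of these lists passed the test; their part in the results was not tested. In bulk libraries, fewer cells and less RNA per cell cannot be told apart.

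At the level of the genes themselves, none of the 43 passed the test. Depth-normalized exon reads were compared by limma on log2(value + 1), with Benjamini-Hochberg adjustment over 12482 genes. Of the 43 members, 0 rose and 0 fell, where 2.22% of all genes tested rose and 0.144% fell. No member had an unadjusted p under 0.05, and edgeR and DESeq2 also called 0. A fit that took the replicate number as a block gave 1 rise (Exosc9) and 2 falls (Exosc8, Cstf3). It called 12.3% of all genes as risen and 6.65% as fallen, and the labels do not describe these numbers as a pairing. The median log2 fold change was 0.02 over the members and 0.01 over all genes tested. Members ranged from -0.27 (Exosc8) to 0.34 (Exosc9), with SEs of 0.11 to 0.28. The 95% intervals bound what was missed: all 43 lay within a 2-fold change either way, and 37 within 1.5-fold. Both libraries labelled siZC3H4 lay above every siNT library for 3 members (Cpsf1, Cstf1, Scaf8), where 19.5% of all genes did so. They lay below every siNT library for 5 (Exosc5, Exosc7, Exosc8, Ncbp1, Papola), where 12.8% of all genes did.

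The uaRNAs from the promoters of the same genes did change. Of the 23 member uaRNAs tested, 14 rose and 0 fell in the libraries labelled siZC3H4, where 62.1% of the 5124 uaRNAs tested rose and 1.13% fell. The members' share is thus near that of uaRNAs at large, and so is their median log2 fold change, 0.96 against 0.88. Both libraries labelled siZC3H4 exceeded every siNT library for 18 of 23 (78.3%; 73.7% of all uaRNAs), and for 0 were both below (2.11%). edgeR and DESeq2 also called 14. Leaving out siZC3H4 replicate 2 left 9 calls: Exosc9, Zc3h18, Mphosph6, C1d and Papola no longer passed. Leaving out siZC3H4 replicate 3 left 13, without C1d.

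**Figure D1:**
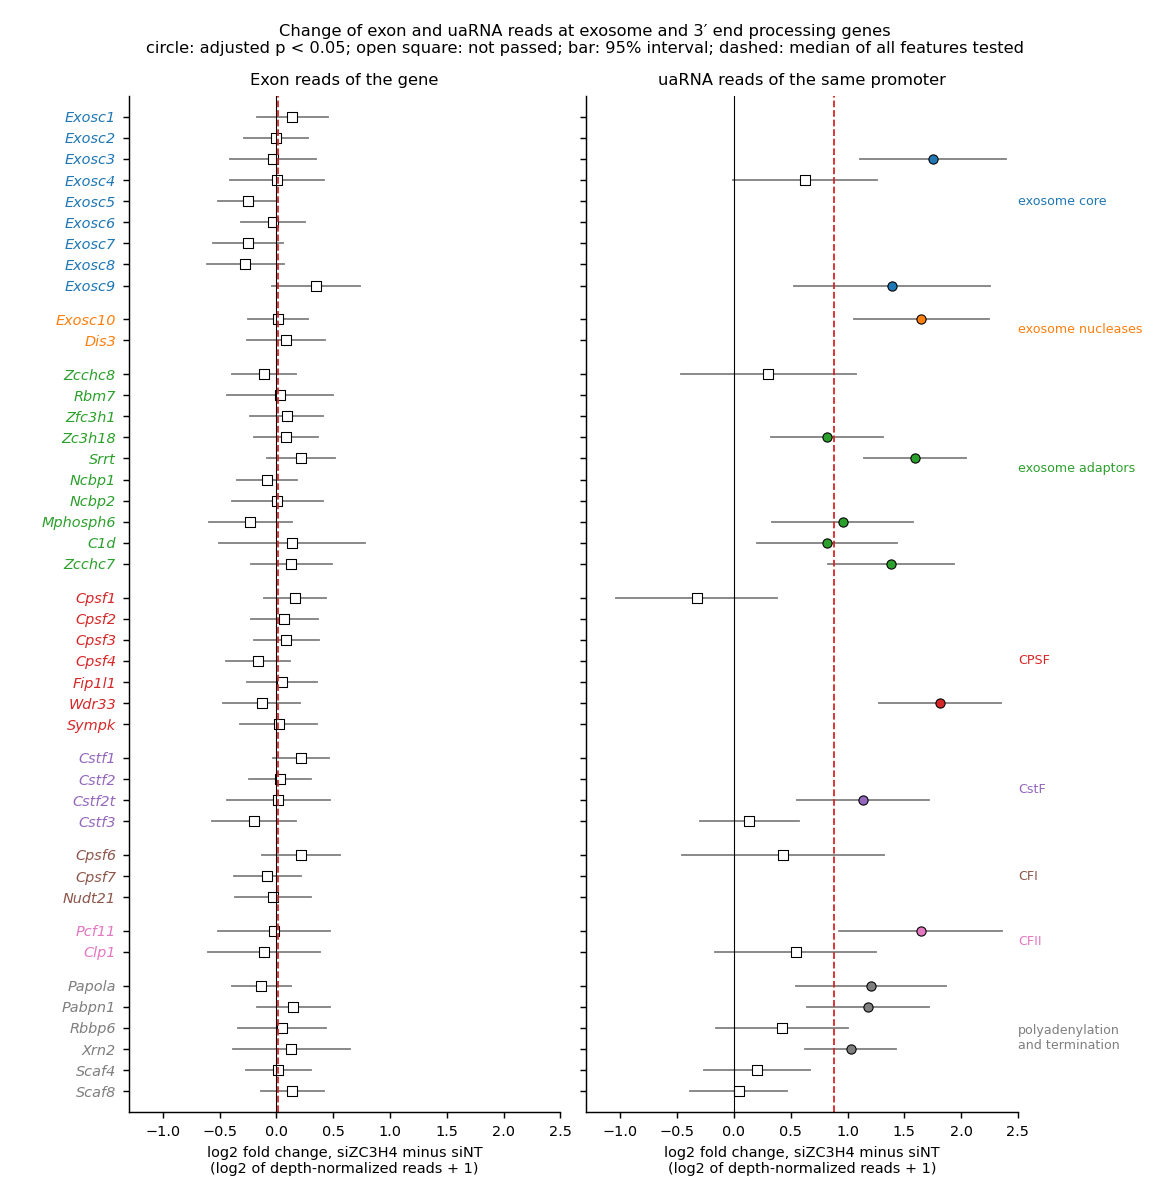
Log2 fold change, libraries labelled siZC3H4 (n = 2) minus siNT (n = 3), with its 95% interval, for exon reads of 43 genes (left) and reads of the 23 tested uaRNAs (right), ordered by complex. Filled circles passed an adjusted p of 0.05 and open squares did not; dashed lines are medians of all features tested (0.01 and 0.88). No exon value passed, and 14 uaRNAs rose at the deposited scaling; of these, Zc3h18 and C1d change sign when the uaRNA table is scaled on itself.

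Because both measures share their libraries and depth factors, the change of each uaRNA was also set against that of its own gene. The log2 ratio of uaRNA to exon reads rose for 13 of 23 members and fell for 0, where 56.1% of 5106 pairs rose and 1.19% fell. Its median change was 0.90 for the members and 0.87 over all pairs. The uaRNAs that rose were the 13 among the 14 above other than C1d, whose ratio change was 0.68 ± 0.40 (SE, adjusted p = 0.14). Without siZC3H4 replicate 2 the count was 6 and the median 0.62, and Exosc9, Zc3h18, Mphosph6, Cstf2t, Papola, Pabpn1 and Xrn2 no longer passed.

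The size of the uaRNA change relative to uaRNAs in general was read from the uaRNA table scaled on itself, with size factors (median of ratios) from its own reads. This sets the median change of all uaRNAs to 0.00 in place of 0.88. On that scale, Wdr33 (0.93), Exosc3 (0.87) and Srrt (0.70) were higher than the typical uaRNA at an adjusted p under 0.05. Cpsf1 (-1.19), Scaf8 (-0.85), Cstf3 (-0.75) and Scaf4 (-0.68) were lower. Of all uaRNAs, 10.5% were higher and 11.7% lower at this threshold. Scaling by TMM gave the same 3 and 4 members, with 11.0% and 11.1% of all uaRNAs. These calls rest on single libraries: without siNT replicate 1 they were 0 higher and 2 lower (Cpsf1, Scaf8), and without siZC3H4 replicate 2 they were 0 and 0. Without siNT replicate 3, Srrt was not called. Without siNT replicate 2, Exosc10 was called in place of Exosc3, and without siZC3H4 replicate 3, Scaf4 was not. The promoters differ in sequence as well as in change. The 250 bases before the RefSeq start (build GRCm38.p6) are printed 5′ to 3′ in the direction of the gene, with each CpG in capitals. The first 4 belong to the largest uaRNA rises for which RefSeq's promoter table gave a window. The other 3 were lower than the typical uaRNA on the self-scaled table.
Exosc3, chr4:45320617-45320866, - strand: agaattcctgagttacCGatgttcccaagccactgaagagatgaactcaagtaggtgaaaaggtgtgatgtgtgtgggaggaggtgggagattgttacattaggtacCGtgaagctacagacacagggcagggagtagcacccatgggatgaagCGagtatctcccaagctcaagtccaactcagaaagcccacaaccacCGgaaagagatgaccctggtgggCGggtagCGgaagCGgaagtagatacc
Exosc10, chr4:148558169-148558418, + strand: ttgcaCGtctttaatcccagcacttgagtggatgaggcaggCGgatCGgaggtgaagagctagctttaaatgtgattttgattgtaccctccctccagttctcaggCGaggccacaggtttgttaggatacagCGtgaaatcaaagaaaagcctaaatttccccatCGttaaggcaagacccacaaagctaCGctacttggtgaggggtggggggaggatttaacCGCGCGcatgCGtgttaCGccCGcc
Pcf11, chr7:92669913-92670162, - strand: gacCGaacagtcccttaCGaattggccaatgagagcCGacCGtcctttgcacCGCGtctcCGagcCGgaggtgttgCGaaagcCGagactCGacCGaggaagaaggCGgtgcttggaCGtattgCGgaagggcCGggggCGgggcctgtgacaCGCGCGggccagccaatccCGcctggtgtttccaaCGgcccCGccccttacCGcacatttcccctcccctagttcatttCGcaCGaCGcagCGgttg
Srrt, chr5:137307675-137307924, - strand: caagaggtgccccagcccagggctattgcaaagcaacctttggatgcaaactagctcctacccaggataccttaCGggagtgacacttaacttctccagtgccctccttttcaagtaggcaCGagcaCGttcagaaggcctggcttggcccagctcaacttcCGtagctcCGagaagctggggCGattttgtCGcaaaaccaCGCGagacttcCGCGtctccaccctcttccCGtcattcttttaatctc
Cstf3, chr2:104590234-104590483, + strand: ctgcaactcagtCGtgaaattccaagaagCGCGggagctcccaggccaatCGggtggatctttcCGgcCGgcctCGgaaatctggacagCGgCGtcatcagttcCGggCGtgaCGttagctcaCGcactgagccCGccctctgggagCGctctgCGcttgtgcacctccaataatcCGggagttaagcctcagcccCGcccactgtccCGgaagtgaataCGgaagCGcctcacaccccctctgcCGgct
Scaf4, chr16:90284487-90284736, - strand: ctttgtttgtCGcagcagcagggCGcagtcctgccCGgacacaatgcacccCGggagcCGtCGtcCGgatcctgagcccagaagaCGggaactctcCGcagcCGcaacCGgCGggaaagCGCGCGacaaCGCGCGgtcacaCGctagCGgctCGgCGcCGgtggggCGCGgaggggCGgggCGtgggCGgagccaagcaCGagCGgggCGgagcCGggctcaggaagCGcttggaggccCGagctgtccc
Scaf8, chr17:3114722-3114971, + strand: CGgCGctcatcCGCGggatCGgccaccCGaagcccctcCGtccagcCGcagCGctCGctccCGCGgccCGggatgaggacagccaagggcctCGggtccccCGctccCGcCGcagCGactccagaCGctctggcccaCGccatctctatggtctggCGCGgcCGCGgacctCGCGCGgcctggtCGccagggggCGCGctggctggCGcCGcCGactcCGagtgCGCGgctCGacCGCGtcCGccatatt
The runs of Exosc3, Srrt and Exosc10 hold 7, 12 and 13 CpGs, that of Cstf3 holds 22, and those of Scaf4 and Scaf8 hold 34 and 40. Among these runs, Pcf11, with 28 CpGs and a uaRNA that rose, goes against this order. The runs were picked by uaRNA change. In the longer windows described below, Papola (40 CpGs, log2 fold change 1.21), Zc3h18 (37, 0.82) and Mphosph6 (33, 0.96) also rose. Zcchc8 (14, 0.30) did not pass. Pearson's r between CpG number and uaRNA change was -0.52 over 19 members and 0.05 over all 4145 tested uaRNAs with a window.

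The exosome core comes first. Its 9 subunits, Exosc1 to Exosc9, form the ring and cap through which RNA passes; EXOSC1 to EXOSC3 are the cap. None of the 9 genes passed the exon test, and their median log2 fold change was -0.03. Exon reads of Exosc9 were 697, 639.1 and 895.9 in siNT and 866.4 and 1010 in the libraries labelled siZC3H4, the highest log2 fold change of the core at 0.34 ± 0.17 (SE, adjusted p = 0.39). The groups overlapped, since siNT replicate 3 exceeded siZC3H4 replicate 2. Exosc8 had the lowest change, with 1196, 1123 and 1462 against 977.4 and 1099 reads. Both libraries labelled siZC3H4 were below every siNT library, and the difference, -0.27 ± 0.15 (SE, adjusted p = 0.45), did not pass. Exosc5 had 2190, 2351 and 2073 against 1813 and 1893 reads, again without overlap, and the lowest adjusted p of all members, 0.36, at -0.25 ± 0.12 (SE). Exosc7 stood at -0.25, and the other 5 between -0.03 (Exosc6) and 0.14 (Exosc1).

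Among the core genes, 3 have a tested uaRNA, and 2 of those rose. Reads of the Exosc3 uaRNA were 36, 24.4 and 35.0 in siNT and 134.7 and 86.0 in the libraries labelled siZC3H4. That is a log2 fold change of 1.75 ± 0.32 (SE, limma adjusted p = 6.79e-06), with no overlap, over a gene whose own exon reads stood at -0.03. The Exosc9 uaRNA, at 12, 8.70 and 13.7 against 39.0 and 24.9 reads, rose by 1.39 ± 0.43 (SE, adjusted p = 0.0045), the lowest read number among the uaRNAs that rose. The Exosc4 uaRNA had 44, 37.4 and 51.2 reads against 82.6 and 56.4. The groups did not overlap, and the value, 0.63 ± 0.32 (SE), did not pass (adjusted p = 0.079). RefSeq places another gene, Oplah, within the 1 kb before the start of Exosc4.

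Of the nucleases, EXOSC10 is the distributive 3′ exonuclease of the nuclear exosome, and DIS3 is a processive exonuclease with endonuclease activity. Exon reads of Exosc10 were 3864, 4526 and 4113 in siNT and 4337 and 4066 in the libraries labelled siZC3H4, at 0.01 ± 0.12 (SE). Dis3 had 1957, 2239 and 2664 against 2236 and 2593 reads, at 0.09 ± 0.15 (SE). For both genes, the libraries labelled siZC3H4 lay inside the siNT range. The uaRNA of Exosc10 had 40, 59.1 and 48.6 reads in siNT and 197.5 and 121.4 in the libraries labelled siZC3H4, a rise of 1.65 ± 0.30 (SE, adjusted p = 4.43e-06). Per 100 exon reads of the gene, that is 1.18 ± 0.14 (SD, n = 3) uaRNA reads in siNT and 3.77 ± 1.11 (SD, n = 2). Mtor lies just upstream of Exosc10 on the same strand, and its exon reads stood at -0.07 ± 0.14 (SE). Dis3 has no uaRNA row.

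The 10 adaptor genes bring RNA to the exosome. ZCCHC8 and RBM7 belong to NEXT and ZFC3H1 to PAXT, while ZC3H18, SRRT (ARS2), NCBP1 and NCBP2 link the exosome to the RNA cap. C1D and MPHOSPH6 bind the exosome with EXOSC10, and ZCCHC7 belongs to the TRAMP complex. No exon value passed, and the median was 0.06. The change was highest in Srrt, at 3225, 4140 and 3730 reads in siNT against 4437 and 4109, a difference of 0.21 ± 0.13 (SE, adjusted p = 0.52). It was lowest in Mphosph6, at 965, 853.9 and 1161 against 782.1 and 903.4 reads, a difference of -0.23 ± 0.16 (SE, adjusted p = 0.59). In both, 1 siNT library crossed into the range of the other group. Ncbp1 had 1607, 1737 and 1667 against 1587 and 1564 reads; the groups did not overlap, and the difference was -0.08 ± 0.12 (SE). The NEXT genes Zcchc8 and Rbm7 stood at -0.11 and 0.03, and Zfc3h1 at 0.09.

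Of the 6 adaptor genes with a tested uaRNA, 5 rose, led by Srrt. Its uaRNA had 403, 349.6 and 288.4 reads in siNT and 1284 and 842.3 in the libraries labelled siZC3H4, with no overlap. The rise was 1.59 ± 0.22 (SE, adjusted p = 2.33e-08), the lowest adjusted p among the members. The uaRNA of Zcchc7 had 58, 67.0 and 62.3 reads against 159.6 and 169.2, a rise of 1.38 ± 0.28 (SE). Those of Mphosph6 (0.96), Zc3h18 (0.82) and C1d (0.82) also rose at the deposited scaling. On the self-scaled table the last 2 stood at -0.066 ± 0.23 and -0.060 ± 0.25 (SE), not distinct from the typical uaRNA (adjusted p = 0.86 and 0.88). Without siZC3H4 replicate 2, the adjusted p was 0.069 for C1d and 0.062 for Zc3h18, and without siZC3H4 replicate 3 it was 0.10 for C1d. RefSeq places another gene, Gm39270, within the 1 kb before the start of Zc3h18. The Zcchc8 uaRNA did not pass, with 37, 13.9 and 32.4 reads against 32.3 and 31.6, and the siNT libraries spanned the other group. Its change of 0.30 ± 0.39 (SE) has a 95% interval of -0.47 to 1.07. That interval holds the median change of all uaRNAs, so this uaRNA is measured too coarsely to set it apart from the rest.

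CPSF is the complex that finds the poly(A) signal and cuts. WDR33 and CPSF4 contact the signal, CPSF3 is the endonuclease, FIP1L1 holds the poly(A) polymerase, CPSF1 is the scaffold and symplekin (Sympk) joins the parts. The 7 genes stood between -0.16 (Cpsf4) and 0.16 (Cpsf1) in exon reads, and none passed. Cpsf4 had 2245, 2214 and 2030 reads in siNT and 2086 and 1789 in the libraries labelled siZC3H4. Cpsf1 had 2186, 2605 and 2402 against 2624 and 2735, so that the groups did not overlap for Cpsf1, by a narrow margin, and did for Cpsf4.

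Of the 7 CPSF genes, 2 have a tested uaRNA, and 1 rose. These uaRNAs, of Wdr33 and Cpsf1, lie at opposite ends of the range of the members. That of Wdr33 had 62, 84.4 and 81.9 reads in siNT and 327.7 and 218 in the libraries labelled siZC3H4. Its rise of 1.81 ± 0.27 (SE, adjusted p = 1.01e-07) was the largest of all 23 members. Per 100 exon reads of Wdr33, uaRNA reads went from 2.29 ± 0.33 (SD, n = 3) to 9.07 ± 3.03 (SD, n = 2). The Cpsf1 uaRNA had 40, 28.7 and 38.4 reads against 25.5 and 30.6, with overlap. It is the only member with a negative value, -0.33 ± 0.36 (SE, adjusted p = 0.42), and its 95% interval of -1.04 to 0.38 excludes the median change of all uaRNAs, 0.88. RefSeq lists no other gene in the 1 kb before the start of Wdr33 or of Cpsf1.

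**Figure D2:**
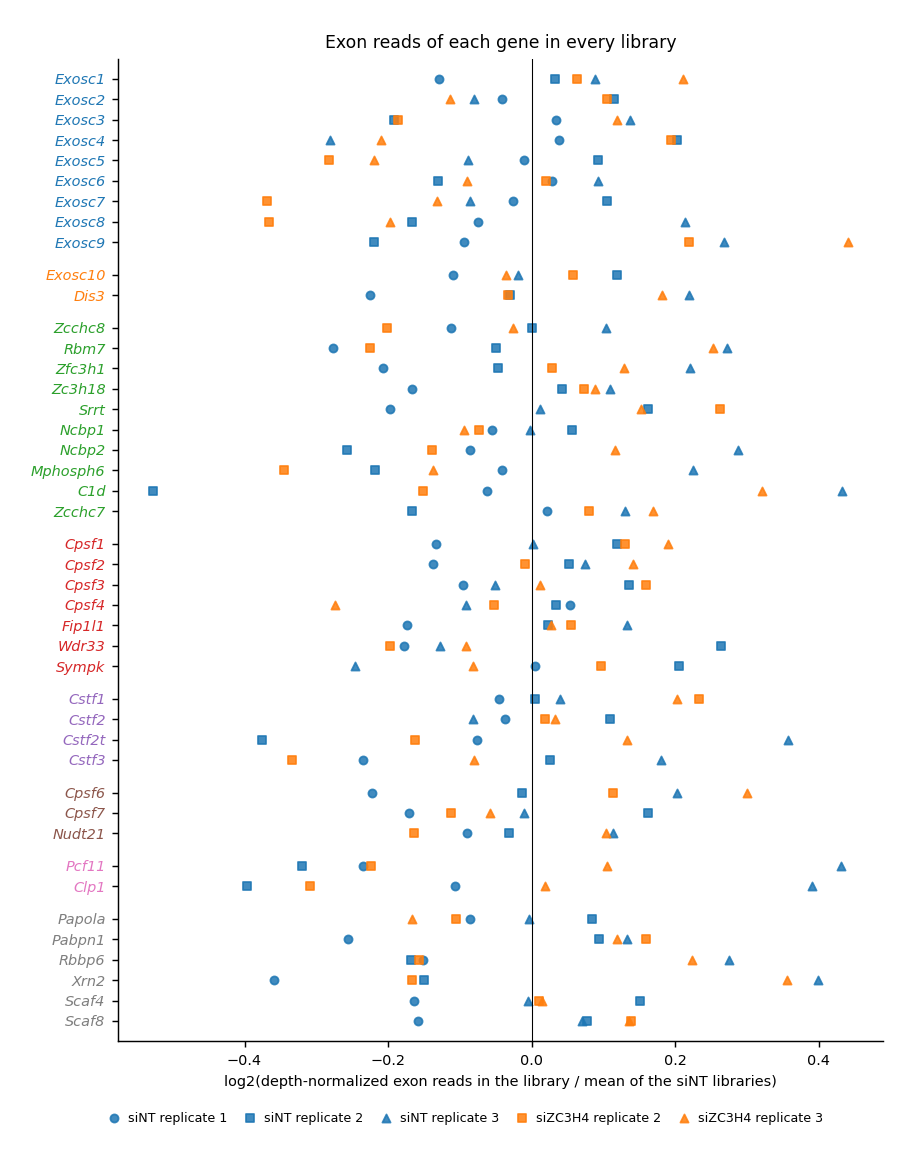
Exon reads of each of the 43 genes in each library, as log2 of the value over the mean of the siNT libraries; blue, siNT (n = 3); orange, libraries labelled siZC3H4 (n = 2); the marker shape is the replicate number. No gene passed the test; orange lies left of all blue in Exosc5, Exosc7, Exosc8, Ncbp1 and Papola, and right of it in Cpsf1, Cstf1 and Scaf8.

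CstF binds the downstream GU-rich element through CSTF2 or its retrogene-derived paralogue CSTF2T, with CSTF1 and CSTF3 as partners. Cstf1 had 2542, 2631 and 2694 exon reads in siNT and 3082 and 3019 in the libraries labelled siZC3H4. Its groups did not overlap and its replicates were the tightest of the members by SE, and the difference, 0.22 ± 0.11 (SE), did not pass (adjusted p = 0.39). Cstf3 had the lowest change, at 752, 900.9 and 1003 against 702.3 and 837.5 reads, a difference of -0.20 ± 0.16 (SE, adjusted p = 0.66), with overlap. The paralogues stood side by side: Cstf2 at 1589, 1759 and 1541 against 1651 and 1668 reads (0.03 ± 0.12, SE). Cstf2t had 2250, 1828 and 3038 against 2120 and 2602 (0.02 ± 0.20, SE). For both, the libraries labelled siZC3H4 lay inside the siNT range.

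Of the 2 tested uaRNAs of this complex, 1 rose. That of Cstf2t had 57, 48.7 and 59.7 reads against 136.4 and 109, a rise of 1.14 ± 0.29 (SE, adjusted p = 7.53e-04) with no overlap. Cstf2t has no introns in its own locus and lies, per RefSeq, inside Prkg1, so reads of Prkg1 and of this uaRNA may share a region. The Cstf2 uaRNA, on chromosome X, was too low to test: 3, 5.22 and 5.12 reads against 3.96 and 7.65. That of Cstf3 was among the most abundant of the members, with 653, 483.5 and 634.8 reads in siNT and 571.6 and 724.7 in the libraries labelled siZC3H4. The groups overlapped, and the change was 0.14 ± 0.22 (SE, adjusted p = 0.58), with a 95% interval of -0.30 to 0.57 that excludes 0.88. In siNT the Cstf3 promoter already gave 67.9 ± 17.1 (SD, n = 3) uaRNA reads per 100 exon reads, the highest ratio of the members, and 84.0 ± 3.64 (SD, n = 2) in the other group.

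CFI, made of the NUDT21 and CPSF6 or CPSF7 proteins, binds UGUA upstream of the cut and favours the use of distal sites. Cpsf6 had 1169, 1352 and 1570 exon reads in siNT and 1475 and 1680 in the libraries labelled siZC3H4 (0.22 ± 0.15, SE, adjusted p = 0.58). Cpsf7 had 1825, 2298 and 2039 against 1900 and 1974 (-0.08 ± 0.13, SE). Both groups overlapped, and Nudt21 stood at -0.03 ± 0.15 (SE). Only Cpsf6 of the 3 has a uaRNA row. It held 15, 12.2 and 11.9 reads against 17.5 and 18.2; the groups did not overlap, and the change, 0.43 ± 0.45 (SE), did not pass (adjusted p = 0.39).

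CFII consists of PCF11, which binds the polymerase's C-terminal domain and takes part in termination, and CLP1, an RNA kinase. Exon reads of Pcf11 were 1629, 1536 and 2585 in siNT and 1641 and 2061 in the libraries labelled siZC3H4 (-0.02 ± 0.22, SE). Those of Clp1 were 1054, 862.6 and 1488 against 916.2 and 1150 (-0.11 ± 0.22, SE). In both genes, replicate 3 was the highest library of its group. The uaRNA of Pcf11 had 28, 13.9 and 23.9 reads against 78.1 and 59.3 and rose by 1.64 ± 0.36 (SE, adjusted p = 1.00e-04). That of Clp1 had 29, 25.2 and 29.0 against 44.7 and 37.3. The groups did not overlap there either, and the change of 0.54 ± 0.35 (SE) did not pass (adjusted p = 0.17).

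The last group acts at and after the cut. PAPOLA is the poly(A) polymerase, PABPN1 coats the nuclear tail, RBBP6 activates cleavage, XRN2 degrades the downstream RNA, and SCAF4 and SCAF8 are paralogues that read the polymerase tail and restrain early termination. The exon log2 fold change was highest for Pabpn1, at 1691, 2154 and 2213 in siNT and 2255 and 2192 reads in the libraries labelled siZC3H4 (0.15 ± 0.14, SE, adjusted p = 0.73). It was lowest for Papola, at 2566, 2886 and 2716 against 2531 and 2426 (-0.13 ± 0.11, SE, adjusted p = 0.68). The Papola groups did not overlap, and the Pabpn1 groups did. Scaf8 had 1767, 2080 and 2070 against 2170 and 2166, without overlap (0.14 ± 0.12, SE). Scaf4 had 2028, 2523 and 2264 against 2287 and 2295 (0.02 ± 0.13, SE), inside the siNT range.

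All 6 genes of this group have a tested uaRNA, and 3 rose: Papola, Pabpn1 and Xrn2. That of Papola had 35, 62.6 and 24.7 reads in siNT and 111.5 and 70.8 in the libraries labelled siZC3H4, a rise of 1.21 ± 0.33 (SE, adjusted p = 0.0016). Without siZC3H4 replicate 2, that call was lost. The uaRNA of Pabpn1 rose by 1.18 ± 0.27 (SE), from 97, 67.8 and 104.9 reads to 219 and 185.5. The Xrn2 uaRNA was the most abundant of the member uaRNAs, with 770, 828.7 and 852.4 reads against 1801 and 1538 and no overlap. It rose by 1.03 ± 0.20 (SE, adjusted p = 2.01e-05), which brought it to 73.4 ± 26.4 (SD, n = 2) reads per 100 exon reads from 38.8 ± 8.22 (SD, n = 3).

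The uaRNAs of Scaf4 and Scaf8 were also abundant and did not pass. Scaf8 had 602, 582.6 and 670.6 reads in siNT and 568.2 and 710.3 in the libraries labelled siZC3H4 (0.04 ± 0.21, SE, adjusted p = 0.87). Scaf4 had 322, 244.3 and 317.4 against 369 and 307.8 (0.20 ± 0.23, SE, adjusted p = 0.44). In both paralogues the groups overlapped, and the 95% intervals, -0.38 to 0.47 and -0.26 to 0.67, exclude the median change of all uaRNAs. RefSeq lists a long noncoding RNA, A230045G11Rik, in the 1 kb before the start of Scaf8, and none before Scaf4. Rbbp6, with another such RNA upstream (4930413G21Rik), had a uaRNA change of 0.42 ± 0.29 (SE, adjusted p = 0.20).

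**Figure D3:**
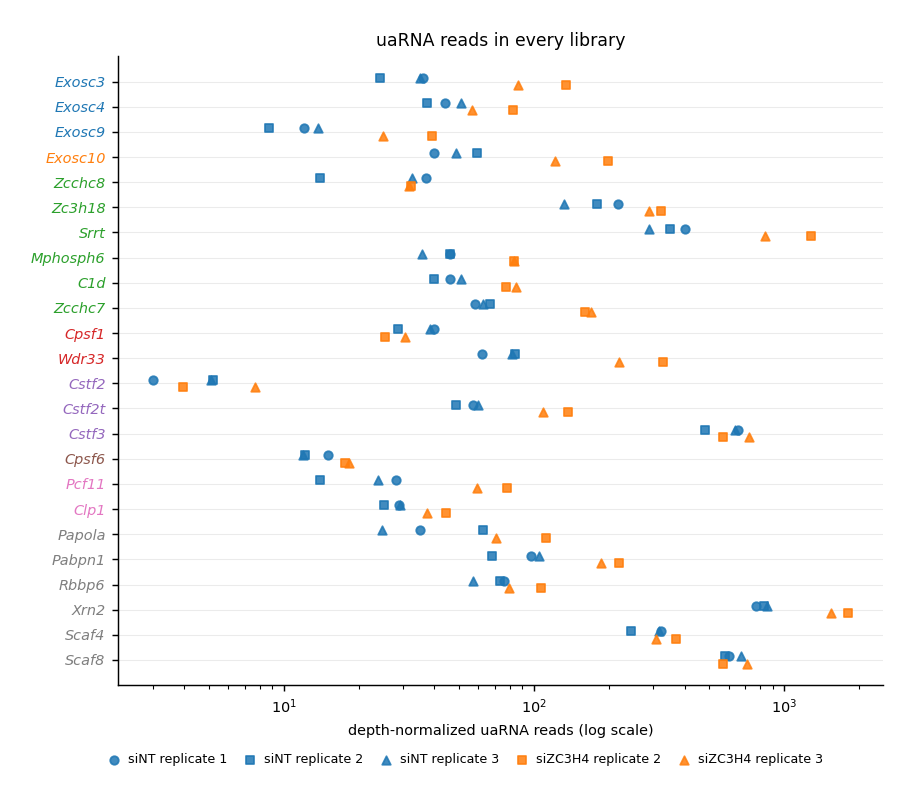
Depth-normalized uaRNA reads in each library for the 24 members with a uaRNA row, on a log axis; blue, siNT (n = 3); orange, libraries labelled siZC3H4 (n = 2); the marker shape is the replicate number. The uaRNAs of Wdr33, Exosc3, Exosc10, Srrt and Pcf11 are separated between groups, and those of Cstf3, Scaf4, Scaf8 and Cpsf1 overlap.

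Among the members, having a uaRNA row went with what lies upstream of the gene. The same count over all genes was not made, so this is not a trait particular to the members. Of the 19 members without a row, 17 have another RefSeq gene within 1 kb upstream, the exceptions being Exosc2 and Fip1l1; of the 24 with a row, 6 do. For 16 of those without a row, the neighbour is a gene on the opposite strand whose exon reads were measured, starting between -281 and 878 bases upstream of the member's start (a negative distance lies inside the member). Examples are Aurka, a mitotic kinase, at Cstf1, and Alg5, a glycosylation enzyme, at Exosc8. Of these 16 divergent partners, 0 rose and 0 fell by limma in exon reads, where 2.22% of all genes tested rose and 0.144% fell. The partners' median log2 fold change was 0.00. They ranged from -0.27 (Ogfod1, opposite Nudt21) to 0.40 (Alg5, adjusted p = 0.21). Aurka stood at 0.01 ± 0.14 (SE).

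Promoter composition was compared with the uaRNA change over the 19 members with a tested uaRNA and a RefSeq promoter window (250 bases before to 50 after the start). RefSeq's table held a window for 38 of the 43 members and not for Exosc4, Exosc9, Ncbp2, Cpsf1 or Wdr33. Across these 19 genes, which share the same 5 libraries, Pearson's r between the percentage of G and C and the uaRNA log2 fold change was -0.54 and Spearman's rho -0.53. For CpG number, r was -0.52. Over all 4145 tested uaRNAs with a window, r was 0.05 for both features. The median content was 59.5% over the 12 that rose (46% to 70.3%) and 66.3% over the 7 that did not pass (50% to 75.7%). Scaf8, Rbbp6 and Scaf4 have the highest content, 75.7%, 74% and 73%, and Zcchc7 the lowest, 46%. The RefSeq start used for the Rbbp6 window lies 628 bases from the gene start given with the exon reads, the farthest of the 19. Its content may thus not be that of the promoter from which its uaRNA was counted. Splitting all uaRNAs into 4 bins by content gave median changes of 0.85, 0.92, 0.90 and 0.86 from low to high.

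**Figure D4:**
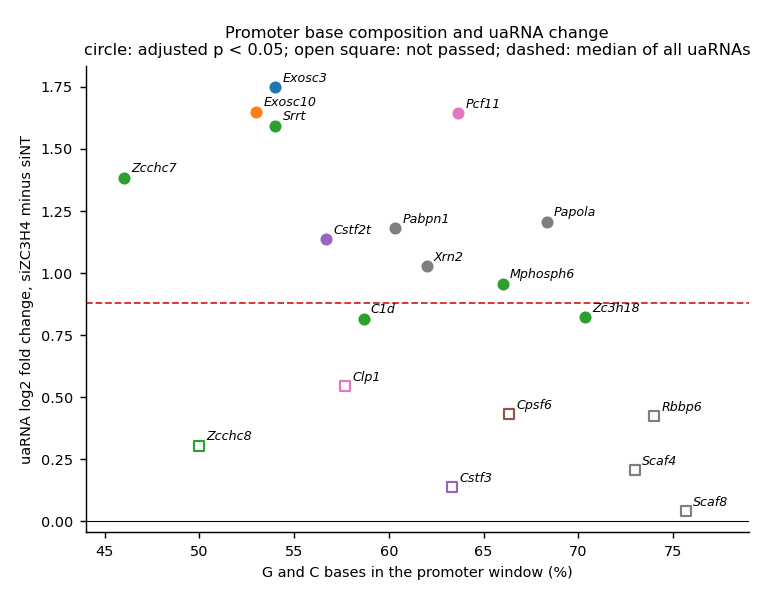
Percentage of G and C in the 300-base promoter window (x axis) and uaRNA log2 fold change, libraries labelled siZC3H4 minus siNT (y axis), for 19 members. Filled circles passed an adjusted p of 0.05 at the deposited scaling; the dashed line is the median of all uaRNAs, 0.88. Among these members, points fall from Zcchc7, Exosc3 and Exosc10 at the left to Scaf4 and Scaf8 at the right. Exceptions include Zcchc8 (50%) and Clp1 (57.7%), which are low, and Pcf11 (63.7%) and Papola (68.3%), which are high. Pearson's r was -0.54 over the 19 members and 0.05 over all 4145 tested uaRNAs with a window.

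Short motifs that bear on the fate of a uaRNA were counted in these windows. Stretches like the 5′ splice site were searched as GTAAGT, as its shifted form GGTAAG (a site can match both, since they overlap) and as the variant GTGAGT. The poly(A) signal was searched as AATAAA, and all on both strands. Reading in the uaRNA direction, GTAAGT occurred in 1 of 19 windows (Zcchc7), GGTAAG in 2 (Mphosph6, Pcf11), GTGAGT in 1 (Clp1) and AATAAA in 0. Over the 4145 windows of tested uaRNA hosts the shares were 1.62%, 2.29%, 4.37% and 3.88%, and over all 32851 windows they were 3.63%, 4.25%, 6.54% and 10.5%. In the gene direction GTAAGT occurred in 2 (Zcchc7, Cstf2t; 2.34% of the hosts' windows and 4.24% of all), and the other 3 in 0 (3.64%, 6.32% and 5.57% of the hosts' windows; 5.65%, 7.70% and 11.3% of all). Counts of 0 to 2 in 19 windows are too few to set apart from these shares. A uaRNA runs far beyond this window, and the letters further upstream were not read here.

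New transcription of the members differed more between genes than between groups. Levels between genes were compared as siNT exon reads per kilobase of the transcript length in the table. The member median was 584 per kb and the median of all genes tested 194.5 per kb. Exosc5 was highest at 2245 ± 142.5 per kb (SD, n = 3), followed by Pabpn1 (1773 ± 251), Exosc2 (1739 ± 126.3) and Exosc10 (1494 ± 119.9). C1d was lowest at 67.2 ± 22.2 per kb, next to Zcchc7 at 172.8 ± 17.7, and these 2 were the only members under the median of all genes. The order among neighbours is loose, also near the top. Exosc5 did not overlap Pabpn1 in its libraries, while Pabpn1, Exosc10, Exosc8, Exosc6, Cpsf4 and Srrt overlapped the gene next in order. The 9 core subunits spanned 4.86-fold per kb, down to 462 ± 83.7 for Exosc9, whereas the 3 CFI genes lay within 1.06-fold (580.2 to 612.6). In CstF, Cstf1 (1223 ± 35.6) was 3.92-fold above Cstf3 (312.2 ± 44.5), and Cstf2t (583 ± 151) stood above Cstf2 (373.4 ± 26.3) with no overlap. In CPSF, Cpsf4 (1271 ± 68.3) was 5.20-fold above Cpsf2 (244.2 ± 19.3). The ratio of Clp1 to Pcf11, both of CFII, was 1.90-fold.

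**Figure D5:**
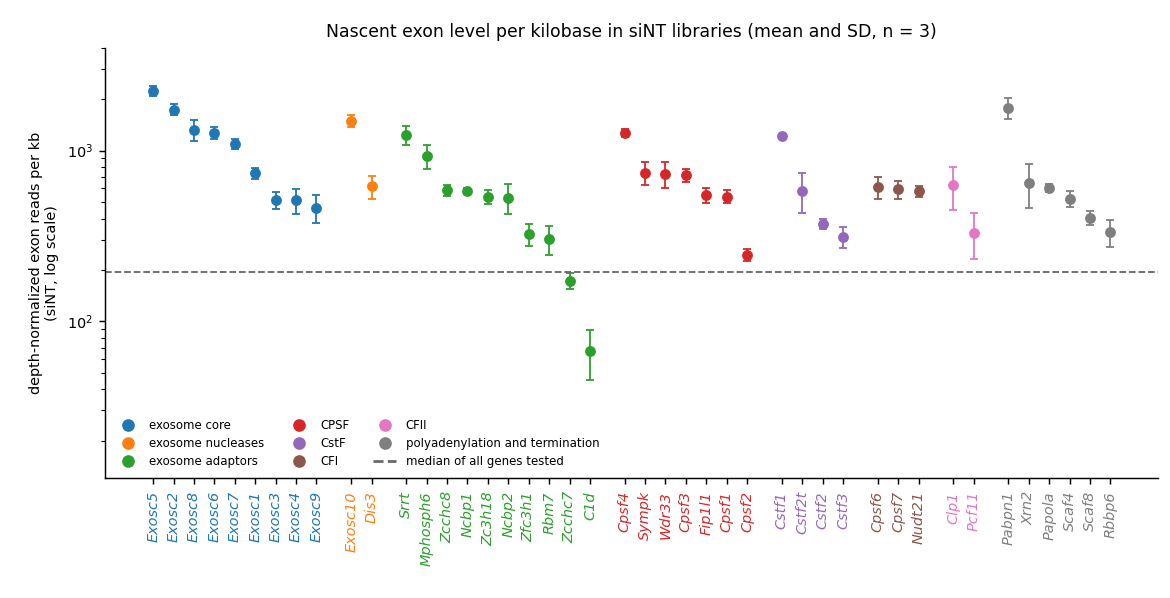
Depth-normalized exon reads per kilobase in siNT (mean and SD, n = 3; log axis) for the 43 genes, by complex and in order of level. The dashed line is the median of all genes tested, 194.5 per kb; C1d and Zcchc7 lie below it and Exosc5 is highest.

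Differences between replicates were as large as those between groups for several members. Exon reads were higher in replicate 3 than in replicate 2 in both groups for 22 of 43 members (51.2%), against 45.7% of all genes. The widest such differences, picked after the values were seen, were in C1d (1.94-fold in siNT and 1.39-fold in the libraries labelled siZC3H4), Clp1 (1.72 and 1.26), Pcf11 (1.68 and 1.26), Cstf2t (1.66 and 1.23) and Xrn2 (1.46 and 1.44). Xrn2 is an example. It had 1712, 1979 and 2895 exon reads in siNT and 1955 and 2809 in the libraries labelled siZC3H4, so the libraries numbered 3 were the highest of both groups (0.13 ± 0.23, SE).

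A second list held other genes of the same pathways, of which 23 were measured: Mtrex, the exosome helicase, the noncanonical poly(A) polymerases Tent4a and Tent4b, cytoplasmic Dis3l, phosphatases, and others. Of the 23, 0 rose and 0 fell in exon reads by limma, where 2.22% of all genes tested rose and 0.144% fell. None had an unadjusted p under 0.05, and the median log2 fold change was -0.06. Of their 15 tested uaRNAs, 10 rose (66.7%) and 0 fell, where 62.1% of all uaRNAs tested rose and 1.13% fell. Their median of 0.87 was near that of all uaRNAs, 0.88. The largest was that of Ppp1cc, a phosphatase catalytic subunit, with 94, 100 and 96.4 reads in siNT and 431.2 and 216.1 in the libraries labelled siZC3H4 (1.65 ± 0.27, SE). Among the others that rose were Tent4a (1.41), Zc3h14 (1.41), Dis3l2 (1.22), Ssu72 (1.14), Zc3h3 (1.07), Rbm26 (0.96), Ppp1cb (0.80) and Rprd2 (0.57). For the Restrictor genes, the uaRNA of Zc3h4 had 134, 108.7 and 174.9 reads against 116 and 182.6 (0.09 ± 0.27, SE). That of Wdr82 stood at 0.19 ± 0.25 (SE), and neither passed. Their 95% intervals, -0.44 to 0.63 and -0.31 to 0.69, exclude the median change of all uaRNAs, 0.88. These intervals are not adjusted for the number of uaRNAs tested. How many of all uaRNAs have an interval that excludes it was not counted. Of their 2 uaRNA to gene ratios, 1 fell, that of Zc3h4 (-0.92, limma adjusted p = 0.0068), where 1.19% of all pairs fell. Its uaRNA stood at 0.09 while its exon reads rose by 1.01, so this is not a fall of the uaRNA. Exon reads of Wdr82 did not pass either (0.09 ± 0.12, SE).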

How the data were processed

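The authors deposited depth-normalized reads, a signal per feature: exon reads of each gene and reads of each uaRNA region, in 5 TT-seq libraries. Per the file headers these are counts normalized for depth. Every deposited value was a whole read number divided by 1 factor per library (1, 1.15, 1.17, 1.77 and 1.05; 100% whole within 0.01), shared by both tables. Per the submitters' processing notes, mm10 and dm6 were the builds, and DESeq2, featureCounts, STAR and cutadapt 1.14 were used. The origin of the factors, the strand setting of the counting and the bounds of the uaRNA regions are not given in the sources used here, so reads of a uaRNA and of an overlapping gene cannot be told apart. The 6 samples of DMSO and dTAG-13 treated cells are not analysed here.

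Features with a mean of 10 or more over the 5 libraries were fitted with limma 3.58.1 (R 4.3.3; lmFit, eBayes with trend) on log2(value + 1), on each whole table, with Benjamini-Hochberg adjustment and a threshold of 0.05. The added 1 shrinks the fold changes of low features. The uaRNA minus gene fit used the difference of the 2 log2 values in each library. The limma steps were repeated on simulated tables with known fold changes. Those libraries were drawn independently, and the difference was fitted there without the trend. Recovered reads were also fitted with edgeR 4.0.16 and DESeq2 1.42.0. Other settings were the pseudocount (0.5, 5), the filter (none, mean of 50), each table scaled on itself (median of ratios, TMM), a replicate block, and each library left out. Leaving libraries out of the self-scaled uaRNA table was chosen after seeing the data. All replicates of a group differed beyond counting noise. The members, lists and settings were chosen with earlier results of these data known. Values per library are given for members whose exon reads passed or whose uaRNA fell, for the highest and lowest exon and uaRNA change in each complex of 3 or more, for both members of complexes of 2, and for the paralogues Cstf2 and Cstf2t, Scaf4 and Scaf8; others were added where a sentence turns on them. Promoter windows are RefSeq's, GRCm38.p6, taken by gene symbol.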

Additional observations from a re-analysis of the deposited data

How the results depend on the processing

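With 2 libraries in 1 group, leaving out a library decides several counts. Over the 5 fits that leave out 1 library, exon calls stayed at 0 to 0 in each direction (median -0.02 to 0.11), uaRNA rises ranged from 9 to 14 (falls 0 to 0, median 0.89 to 0.99), and rises of the uaRNA to gene ratio from 6 to 13 (falls 0 to 0, median 0.62 to 1.13). On the self-scaled uaRNA table the members higher than the typical uaRNA ranged from 0 to 3 and those lower from 0 to 4. With size factors from the uaRNA table itself (median of ratios, then TMM), there were 3 rises and 4 falls with medians of 0.080 and 0.10, and 5 values called on either scale changed sign: Zc3h18 (-0.066, -0.041), C1d (-0.060, -0.035), Cstf3 (-0.75, -0.73), Scaf4 (-0.68, -0.66) and Scaf8 (-0.85, -0.82). So did 5 called on neither: Exosc4 (-0.25, -0.22), Zcchc8 (-0.55, -0.53), Cpsf6 (-0.40, -0.38), Clp1 (-0.32, -0.30) and Rbbp6 (-0.46, -0.43). That scaling removes the median change of all uaRNAs by construction.

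The groups share the replicate numbers 2 and 3, which the labels do not describe as a pairing. Deviations of same-numbered libraries from their group means correlated at 0.53 and 0.62 in exon reads and 0.38 and 0.43 in uaRNA reads. The deviations of the 2 libraries labelled siZC3H4 mirror each other, so the correlations at replicates 2 and 3 are not independent. A replicate block, in which siNT replicate 1 carries no information on the groups, gave 1 exon rise (Exosc9, 0.31, adjusted p = 0.037), where it called 12.3% of all genes as risen, and 2 falls (Exosc8, -0.31, 0.025; Cstf3, -0.31, 0.033), where it called 6.65% as fallen. It left the uaRNA count at 14 and the ratio count at 13. The pseudocounts and both count tools left the calls as they were. With a mean of 50 or more, Exosc9 and Pcf11 were not tested as uaRNAs, and without a filter the Zc3h18 ratio did not pass. The 95% intervals of the uaRNAs of Exosc4, Zcchc8, Cpsf6, Clp1 and Rbbp6 hold both 0 and the median change of all uaRNAs.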
